A study of Mus musculus with 24 samples.

Results

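The 9 genes described here are markers of liver zonation that are not cytochromes P450, chosen by name from the 24532 genes of the deposited expression table. The pericentral genes, which mark hepatocytes around the central vein, were *Glul*, *Oat*, *Slc1a2*, *Axin2*, *Tbx3* and *Rhbg*. The periportal genes, which mark hepatocytes around the portal vein, were *Hal*, *Sds* and *Gls2*. All 9 were found in the table and all 9 were expressed highly enough to be tested in liver. They were grouped by zonal position, and both they and the lists of other genes below were chosen with earlier results of these data known. Their levels were compared between LKO and Ctrl livers, which are 6 of the 24 libraries in the series.

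RNA was sequenced from liver, inguinal white adipose tissue (iWAT), gastrocnemius muscle (GM) and hypothalamus of mice, with 3 libraries for each genotype and tissue. Ctrl mice carried Crif1flox/flox, and LKO mice carried Alb-Cre;Crif1flox/flox, so that both groups had the floxed alleles and the Cre recombinase was present in LKO mice. The Alb promoter drives Cre in hepatocytes, and recombination in the other cells of the liver was not measured here. All mice were C57BL/6, aged 8 weeks, and ate chow. CRIF1, encoded by *Gadd45gip1*, is a protein of the mitochondrial ribosome that is needed to make the oxidative phosphorylation complexes. Hepatocytes along the axis from the portal to the central vein express different enzymes. Endothelial cells of the central vein secrete Wnt ligands and R-spondin, which activate β-catenin in the nearest hepatocytes and switch on the pericentral genes. Ammonium is handled in series along this axis, because periportal cells release it from glutamine and turn it into urea, and the last pericentral cells capture what is left as glutamine.

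Levels are given as FPKM, the number of fragments per kilobase of a gene's transcript in proportion to all fragments of the library. Log2 changes are log2 fold changes of LKO against Ctrl on log2(FPKM + 1), which understates the change of genes near 1 FPKM. They were tested with limma, and the p-values were adjusted by the Benjamini-Hochberg method over all 10956 genes tested in liver. A gene was called when the adjusted p was under 0.05 and the change was at least 1.5-fold. Of all tested liver genes, 27.4% were called, 23.9% higher and 3.5% lower in LKO mice. The median log2 change of all tested genes was 0.33, and it became -0.04 when libraries were scaled by the median ratio, so the scaled value of each marker is given beside the first. For a single gene, an exact permutation test of 3 livers against 3 cannot give a p below 0.1.

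The targeted gene *Gadd45gip1* reached 14.6, 12.5 and 13.6 FPKM in Ctrl 1, 2 and 3 and 5.40, 2.0 and 2.51 FPKM in LKO 1, 2 and 3. Every LKO liver had less, with a log2 change of -1.84, a standard error (SE) of 0.27 and an adjusted p = 0.00357 by limma. LKO 1 stood apart from the other LKO livers. Across genes, which are not independent replicates, its Pearson correlation on log2(FPKM + 1) was 0.973 with LKO 2, 0.958 with LKO 3 and 0.953 to 0.958 with the Ctrl livers, whereas LKO 2 and LKO 3 had 0.987 with each other. It also retained the most *Gadd45gip1*. The markers below are therefore given with all 6 livers and again without LKO 1. Summed markers of hepatocytes were 40431 to 66850 FPKM in the liver libraries and at most 233 FPKM in any library of another tissue. Sequencing depth, taken from coverage divided by FPKM, was 5.42 to 8.09 gigabases for the Ctrl livers and 4.70 to 5.54 for the LKO livers.

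Taking all 6 livers, limma called 0 of the 6 pericentral markers in either direction (*Axin2* alone had an unadjusted p under 0.05, at 0.0412, against 6126 of all 10956 genes), and 1 of the 3 periportal markers, *Hal*, was called lower. Without LKO 1, 2 pericentral markers were called higher (*Axin2* and *Rhbg*) and all 3 periportal markers were called lower, while 32.5% of the 10436 genes then tested were called higher and 4.97% lower. When any other liver was left out in its place, 0 of the 9 markers were called, so that these calls rest on which library is absent. The higher calls are near the share of all genes and were not made after scaling of the same 5 livers, while *Hal*, *Sds* and *Gls2* were called lower there too (with scaling, 9.35% of genes were then called higher and 13.5% lower). LKO 1 had the lowest *Glul*, *Slc1a2*, *Rhbg* and *Oat* and the highest *Sds* and *Gls2* of the 6 livers, whereas LKO 2 and LKO 3 lay on the other side of the Ctrl livers for *Slc1a2*, *Rhbg*, *Sds* and *Gls2*. In bulk liver, fewer cells of a zone and less RNA of the gene per cell cannot be told apart.

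**Figure D1:**
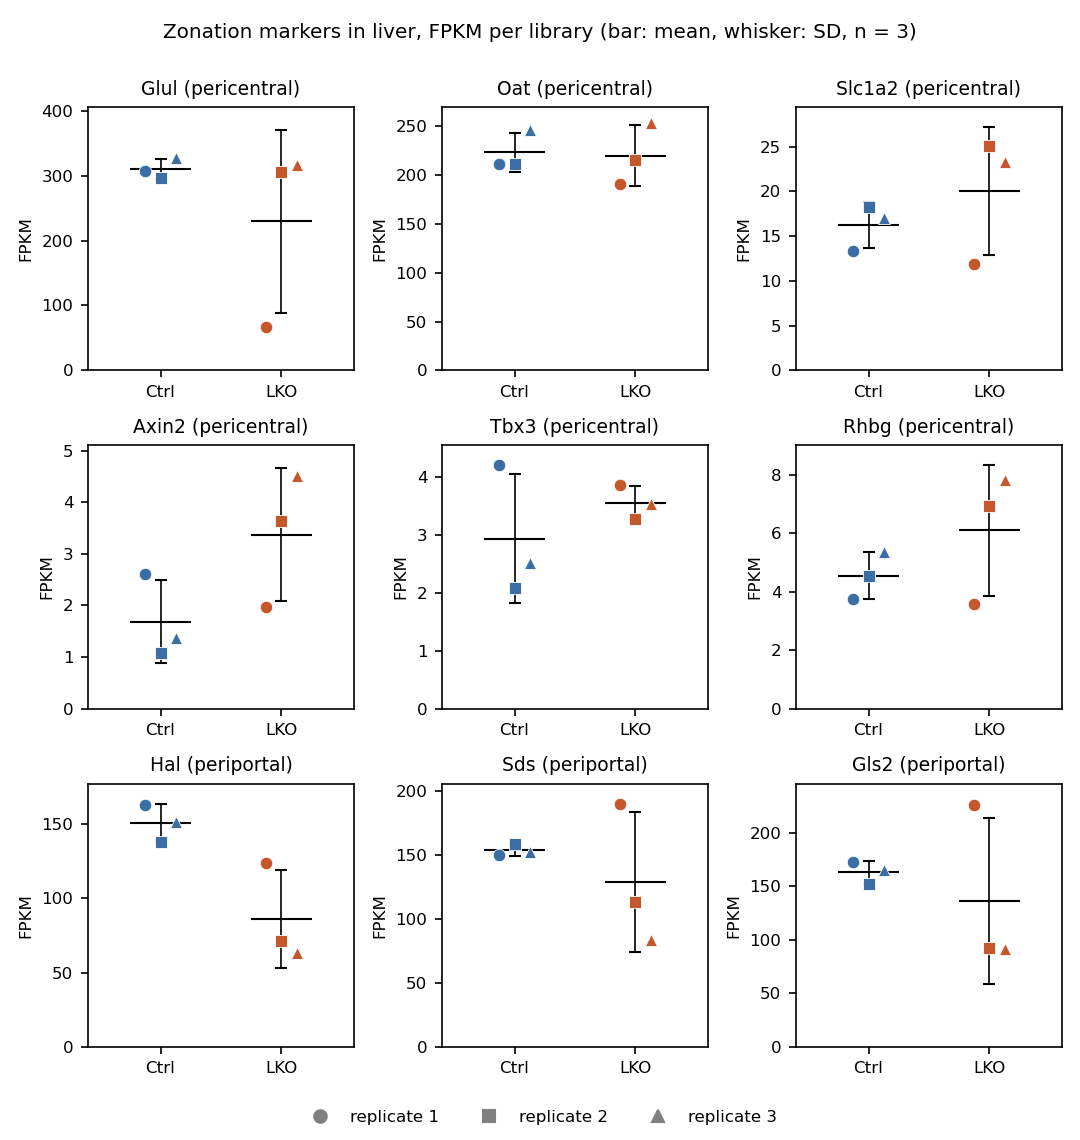
FPKM of each of the 9 markers (y axis, from 0) in the 3 Ctrl and 3 LKO livers (x axis), with points for libraries, a bar for the mean and whiskers for the SD (n = 3). *Glul* was 67.0 FPKM in LKO 1 against 296 FPKM or more in the other 5 livers, and *Hal* was the only marker of the 9 whose groups did not overlap.

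*Glul* (NCBI Gene 14645, mm10 chr1:153899929-153909723, plus strand) encodes glutamine synthetase, which joins ammonium to glutamate in the last rows of cells around the central vein. Ctrl 1, 2 and 3 had 306, 296 and 327 FPKM, and LKO 1, 2 and 3 had 67.0, 305 and 317 FPKM. LKO 1 had less than any other liver, while LKO 2 and LKO 3 lay within the range of the Ctrl livers. The log2 change was -0.73 (SE 0.55, adjusted p = 0.297 by limma) and the groups overlapped. Without LKO 1 it was 0.01 (SE 0.10, adjusted p = 0.953). After median-ratio scaling it was -1.17 with all 6 livers (adjusted p = 0.111) and -0.54 without LKO 1 (adjusted p = 0.00603), which stays under 1.5-fold. Among all genes, 8.99% were called higher and 8.53% lower after this scaling of all 6 livers.

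*Oat* (NCBI Gene 18242, chr7:132557475-132576398, minus strand) encodes ornithine aminotransferase, which turns ornithine into a precursor of glutamate and proline. Its FPKM were 212, 212 and 246 in Ctrl and 191, 216 and 253 in LKO livers, with the lowest and the highest value both in LKO livers. Its log2 change was -0.03 (SE 0.14, adjusted p = 0.879 by limma), a value below the median of all genes. It was -0.47 after median-ratio scaling (adjusted p = 0.0204), again under 1.5-fold, and its sign turned to 0.07 without LKO 1 on the deposited scale.

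*Rhbg* (NCBI Gene 58176, chr3:88242874-88254684, minus strand) encodes an ammonium transporter of the Rhesus family that sits in the same cells as glutamine synthetase. Its level was 3.76, 4.52 and 5.35 FPKM in Ctrl livers and 3.57, 6.91 and 7.80 FPKM in LKO livers. LKO 1 was the lowest of the 6, and LKO 2 and LKO 3 were above every Ctrl liver. A log2 change of 0.31 did not pass (SE 0.25, adjusted p = 0.329 by limma), and that of 0.60 without LKO 1 did (SE 0.14, adjusted p = 0.00597). With median-ratio scaling it was -0.07 with all livers and 0.13 without LKO 1 (adjusted p = 0.817 and 0.446).

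*Slc1a2* (NCBI Gene 20511, chr2:102658683-102790784, plus strand) encodes the glutamate transporter GLT-1, which in liver is restricted to pericentral hepatocytes and in brain to astrocytes. The Ctrl livers had 13.3, 18.3 and 17.0 FPKM and the LKO livers 11.9, 25 and 23.3 FPKM. As for *Rhbg*, LKO 1 was the lowest liver and the other LKO livers were the highest. Its log2 change was 0.24 (SE 0.27, adjusted p = 0.483 by limma) with all 6 livers. Without LKO 1 it was 0.56 (SE 0.14, adjusted p = 0.00748), which is under 1.5-fold. The sign turned to -0.18 after median-ratio scaling of all 6 livers (adjusted p = 0.544).

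*Axin2* (NCBI Gene 12006, chr11:108920349-108950781, plus strand) encodes a scaffold of the complex that degrades β-catenin and is itself switched on by β-catenin, so that it is widely used as a reporter of Wnt signalling. Its FPKM were 2.60, 1.09 and 1.37 in Ctrl and 1.97, 3.63 and 4.51 in LKO livers. LKO 2 and LKO 3 were above every Ctrl liver, and LKO 1 lay below Ctrl 1. For *Axin2* the log2 change was 0.70 (SE 0.28, adjusted p = 0.0776 by limma), the largest rise among the 9 markers but not called. Without LKO 1 it was 0.95 (SE 0.22, adjusted p = 0.00554). After scaling it was 0.38 with all livers and 0.56 without LKO 1 (adjusted p = 0.251 and 0.0834).

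*Tbx3* (NCBI Gene 21386, chr5:119670862-119684724, plus strand) encodes a T-box transcriptional repressor that β-catenin switches on in liver. It measured 4.21, 2.09 and 2.52 FPKM in Ctrl and 3.86, 3.28 and 3.54 FPKM in LKO livers. The spread of the Ctrl livers covered all 3 LKO livers. The change was 0.25 on the log2 scale (SE 0.20, adjusted p = 0.322 by limma) and 0.20 without LKO 1 (adjusted p = 0.405). Its sign turned to -0.09 after scaling and to -0.21 after scaling without LKO 1.

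*Hal* (NCBI Gene 15109, chr10:93488768-93516761, plus strand) encodes histidine ammonia-lyase, the first enzyme of histidine breakdown. It reached 163, 138 and 151 FPKM in Ctrl livers and 124, 71.2 and 63.3 FPKM in LKO livers. Every LKO liver was below every Ctrl liver, LKO 1 by the least. Among all tested genes, 8.1% were lower in every LKO liver in this way. The log2 change of *Hal* was -0.86 (SE 0.24, adjusted p = 0.0275 by limma), it was -1.15 without LKO 1 (SE 0.11, adjusted p = 1.27e-04), and after scaling it was -1.30 (adjusted p = 0.0260). The direction held in all 16 alternative settings, but the call was lost with ordinary variances (adjusted p = 0.101) and when any liver except LKO 1 was left out. Its adjusted p was 0.0857 without Ctrl 1, 0.0694 without Ctrl 2, 0.0839 without Ctrl 3, 0.0999 without LKO 2 and 0.0679 without LKO 3, with log2 changes between -0.67 and -0.92.

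*Sds* (NCBI Gene 231691, chr5:120476547-120483905, plus strand) encodes serine dehydratase, which turns serine into pyruvate and ammonium. Its level was 150, 158 and 152 FPKM in Ctrl livers and 190, 113 and 83.4 FPKM in LKO livers. LKO 1 exceeded every Ctrl liver, and LKO 2 and LKO 3 were below every Ctrl liver. On the log2 scale the change was -0.33 (SE 0.27, adjusted p = 0.324 by limma) with all 6 and -0.65 without LKO 1 (SE 0.13, adjusted p = 0.00330). After scaling these were -0.77 (adjusted p = 0.141) and -1.20 (adjusted p = 0.00234). On the deposited scale the change without LKO 3 was -0.07 (adjusted p = 0.825).

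*Gls2* (NCBI Gene 216456, chr10:128194635-128210004, plus strand) encodes liver glutaminase, which releases ammonium from glutamine and is the periportal opposite of *Glul*. The Ctrl livers had 173, 152 and 165 FPKM and the LKO livers 226, 92.1 and 91.2 FPKM. As for *Sds*, LKO 1 was above and the other LKO livers were below all Ctrl livers. Its log2 change was -0.39 (SE 0.33, adjusted p = 0.344 by limma), and without LKO 1 it was -0.83 (SE 0.10, adjusted p = 3.07e-04). After scaling it was -0.83 with all livers (adjusted p = 0.168) and -1.37 without LKO 1 (adjusted p = 2.76e-04). On the deposited scale the change without LKO 3 was -0.18 (adjusted p = 0.706). The library kit does not mark strand, so reads of *Gls2* and its opposite-strand neighbour *Spryd4*, and of *Sds* and *Plbd2*, cannot be told apart where they overlap.

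**Figure D2:**
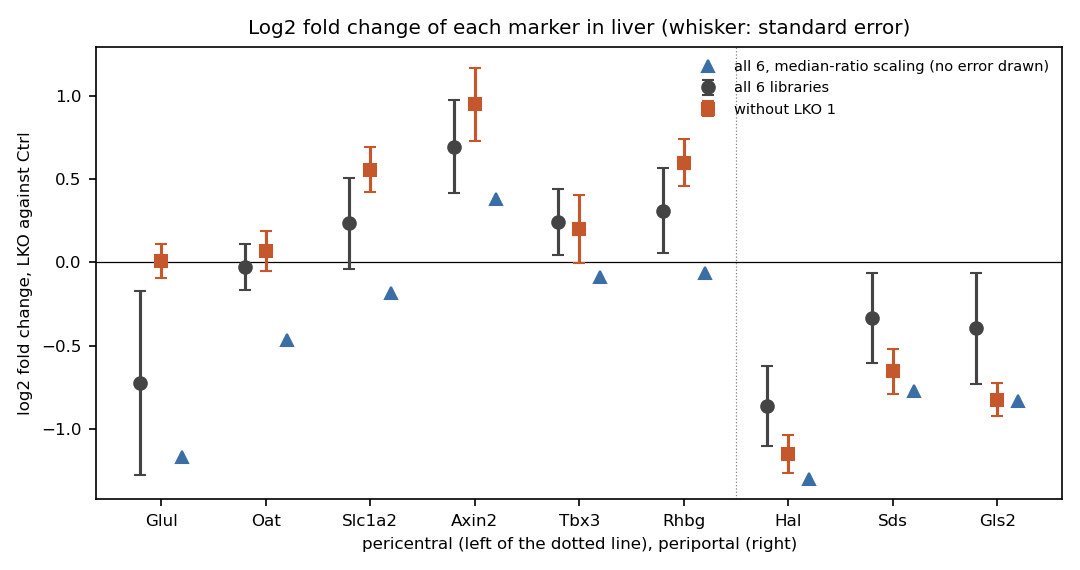
Log2 fold change, LKO against Ctrl on log2(FPKM + 1) (y axis), of each marker (x axis), with all 6 livers (circles), without LKO 1 (squares) and with all 6 after median-ratio scaling (triangles), and whiskers of 1 SE on the first and second. The 3 periportal markers were below 0 under all 3, from -0.33 to -1.30, while *Slc1a2*, *Tbx3* and *Rhbg* turned below 0 with the scaling and *Glul* and *Oat* rose above 0 without LKO 1.

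The balance between the zones was summarised in each liver as the mean log2(FPKM + 1) of the 6 pericentral markers minus that of the 3 periportal markers, a difference in which the scale of a library nearly cancels. Ctrl 1, 2 and 3 had differences of -2.96, -3.0 and -2.93, against -3.56, -1.85 and -1.53 for LKO 1, 2 and 3. The Ctrl livers were almost alike (-2.96 ± 0.0379, SD, n = 3), and the LKO livers varied widely (-2.31 ± 1.09). LKO 1 lay 0.59 below the Ctrl mean, on the periportal side, and the mean of the other LKO livers lay 1.28 above it, on the pericentral side. Over all 3 LKO livers the difference from Ctrl was 0.65, and with *Glul* left out of the pericentral mean, an alternative chosen after the values were seen, it was 0.82. No test was made of this score.

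In the ratio of *Glul* to *Gls2* FPKM, which sets glutamine synthesis against its breakdown within a library, the Ctrl livers had 1.77, 1.94 and 1.98. The ratio was 0.297 in LKO 1, 3.31 in LKO 2 and 3.48 in LKO 3. The LKO livers thus lay on both sides of the Ctrl livers for this pair of genes. In the ratio of *Slc1a2* to *Hal* FPKM, LKO 1 (0.0959) lay within the Ctrl range of 0.0819 to 0.133, and LKO 2 (0.352) and LKO 3 (0.368) lay above it.

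**Figure D3:**
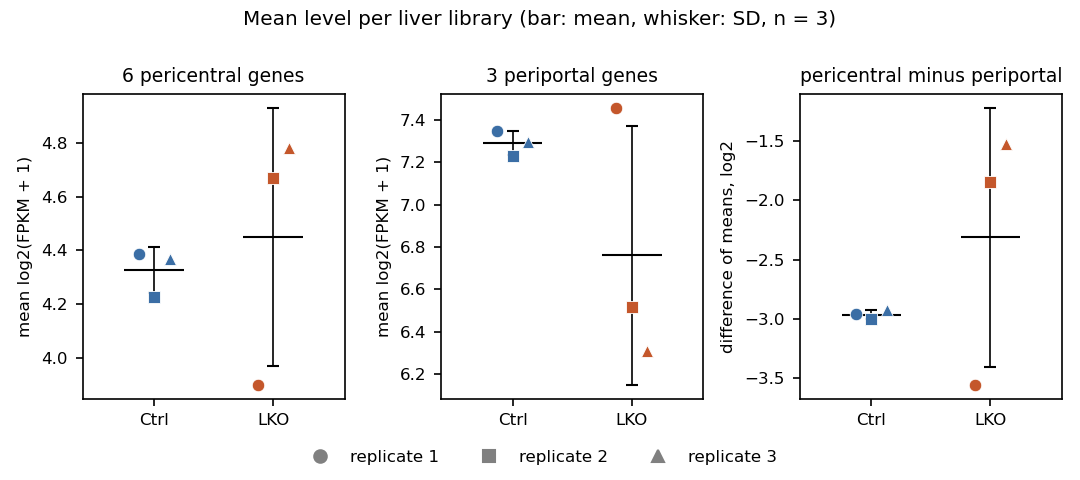
Mean log2(FPKM + 1) of the 6 pericentral markers, of the 3 periportal markers, and their difference (y axes), by liver library and group (x axis), with a bar for the mean and whiskers for the SD (n = 3). The difference was close to -2.96 in all 3 Ctrl livers, -3.56 in LKO 1 and -1.85 and -1.53 in LKO 2 and LKO 3.

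The genes whose profile over the 6 livers was nearest to that of *Glul*, by root mean square distance of centred log2(FPKM + 1) among 10955 genes, were *Prodh* (0.327), *Cyp1a2* (0.380) and *Eif4ebp3* (0.448). *Prodh*, proline dehydrogenase, had 81.5, 64.7 and 84.0 FPKM in Ctrl and 25, 56.6 and 66.7 FPKM in LKO livers. *Cyp1a2*, a pericentral cytochrome, had 392, 333 and 385 FPKM in Ctrl and 150, 488 and 647 FPKM in LKO livers. As with *Glul*, LKO 1 was the lowest liver for both, which follows from choosing them by their likeness to *Glul*. Nearest to *Sds* were *Fgfr4* (0.0798), the hepatocyte receptor for bile acid feedback, *Cd302* (0.0885) and *Marcksl1-ps4* (0.0919). *Fgfr4* had 16.1, 17.1 and 16.7 FPKM in Ctrl and 18.3, 11.4 and 9.16 FPKM in LKO livers. LKO 1 was the highest, which again follows from the choice by profile. Of the cytochromes, pericentral *Cyp2e1* and periportal *Cyp2f2* were both called lower (log2 change -1.50 and -0.73, adjusted p = 8.37e-04 by limma and 0.00711), with LKO 1 on the same side as the other LKO livers. *Cyp1a2*, the other cytochrome compared, had a log2 change of -0.03 (adjusted p = 0.966) and was called higher without LKO 1 (0.61, adjusted p = 0.00716).

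Among the ligands of the central vein, *Wnt2* measured 1.53, 2.08 and 2.01 FPKM in Ctrl and 0.622, 3.32 and 3.85 FPKM in LKO livers. As for *Slc1a2* and *Rhbg*, LKO 1 was the lowest liver and the other LKO livers were the highest. Its log2 change was 0.18 (adjusted p = 0.713 by limma) and 0.68 without LKO 1 (adjusted p = 0.00221). *Wnt9b*, at 0.290, 0.285 and 0.670 FPKM in Ctrl and 0.257, 0.878 and 1.03 FPKM in LKO livers, was too low to be tested, and LKO 1 was again the lowest liver and LKO 2 and LKO 3 the highest. *Rspo3*, the R-spondin of the central vein, had 1.65, 1.45 and 1.93 FPKM in Ctrl and 2.54, 4.46 and 4.38 FPKM in LKO livers. It was called higher (log2 change 0.82, SE 0.19, adjusted p = 0.0154), and after scaling the change was 0.50 (adjusted p = 0.0339), under 1.5-fold. Of the 6 ligands listed, 2 were expressed highly enough to be tested and 1 was called higher, while 0 were after scaling and both were without LKO 1. The shares of all genes called higher in these fits were 23.9%, 8.99% and 32.5%.

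Summed FPKM of 5 central vein endothelial markers, these 3 ligands with *Thbd* and *Cdh13*, was 5.83 to 7.43 in Ctrl livers, 5.40 in LKO 1, 16.6 in LKO 2 and 17.0 in LKO 3. Of the 4 of these that were tested, *Rspo3* alone was called higher and 0 after scaling, and 3 were called higher without LKO 1. The shares of all genes called higher were 23.9%, 8.99% and 32.5% in the same order. *Thbd*, an endothelial receptor for thrombin, had a log2 change of 0.98 (adjusted p = 0.0864 by limma), and *Cdh13*, a cadherin, had 1.16, 1.22 and 0.957 FPKM in Ctrl and 0.485, 1.38 and 1.35 FPKM in LKO livers (-0.06, adjusted p = 0.812). The sum of 8 markers of liver endothelium was 99.9 to 107 in Ctrl livers and 118, 151 and 186 in LKO 1, 2 and 3. All 7 macrophage markers were called higher, beside 23.9% of all genes, and 6 were after scaling (8.99% of all genes), and their sum was 123 to 129 FPKM in Ctrl and 267, 309 and 417 FPKM in LKO livers. Cholangiocyte markers (6) summed to 30.7 to 31.8 in Ctrl livers and to 41.6, 89.0 and 76.4 in LKO livers, and stellate cell markers (6) to 31.2 to 32.4 and 68.8, 64.1 and 79.0. Monocyte and neutrophil markers (7) summed to 3.07 to 4.09 FPKM in Ctrl and 16.3 to 26.0 FPKM in LKO livers. No marker of these lists was at 0 in all 6 livers. Summed hepatocyte markers were highest in LKO 1 (66850) and lowest in LKO 3 (40431), against 53425 to 56535 in Ctrl livers. The part of these cells in the values of the zonation markers was not tested.

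Of 11 Wnt and R-spondin receptors, 1 was called higher and 0 lower, beside 23.9% and 3.5% of all genes. Their median log2 change was 0.23, beside 0.33 for all genes. After scaling 0 were called higher and 2 lower (median -0.11), beside 8.99% and 8.53% of all genes. Without LKO 1 the counts were 3 and 1 (32.5% and 4.97% of all genes). With the deposited TPM, which gives each transcript's share of all transcripts in a library, 4 receptors were called higher and 0 lower, while 36.9% of the 12112 genes then tested were called higher and 2.88% lower. The call was *Fzd6*, a Frizzled receptor, which went from a mean of 1.01 to 2.19 FPKM (log2 change 0.66, adjusted p = 0.00526 by limma; 0.40 after scaling). *Lgr5*, the R-spondin receptor of pericentral hepatocytes, had 2.48, 1.82 and 2.52 FPKM in Ctrl and 1.39, 1.99 and 2.22 FPKM in LKO livers (log2 change -0.20, adjusted p = 0.312). *Lgr4*, its more widespread relative, had a log2 change of -0.46 (adjusted p = 0.0875) and of -0.68 without LKO 1 (adjusted p = 8.76e-04). Of 12 tested inhibitors and members of the destruction complex, 0 were called by limma with all 6 livers, and 7 had an unadjusted p under 0.05, a share near that of all genes (6126 of 10956). Of these, *Gsk3a* and *Csnk1a1*, kinases that mark β-catenin for degradation, had adjusted p = 0.0492 and 0.0339 at changes under 1.5-fold. From the same list, 0 were called higher and 2 lower after scaling, 4 higher and 0 lower without LKO 1, and 5 higher (*Axin2* among them) and 0 lower with TPM. *Axin1*, the constitutive relative of *Axin2*, went from 7.28 to 9.41 FPKM (log2 change 0.32, adjusted p = 0.103).

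*Ctnnb1*, which encodes β-catenin, was 71.9, 72.5 and 72.2 FPKM in Ctrl and 85.9, 104 and 124 FPKM in LKO livers. All LKO livers were above the Ctrl livers, but the log2 change of 0.52 (adjusted p = 0.0264 by limma) was under 1.5-fold and became 0.08 after scaling. Among all genes, 53% were higher in every LKO liver. Of 8 tested nuclear factors, *Ctnnb1* included, 1 was called higher with all livers, beside 23.9% of all genes. Without LKO 1 there were 2 (32.5% of all genes), and with TPM also 2 (36.9%), which were *Ctnnb1* and *Tcf7*. In each of these fits 0 were called lower. The call with all livers was *Tcf7*, a partner of β-catenin, from 1.33 to 3.52 FPKM (log2 change 0.93, adjusted p = 0.00801 by limma, and 0.62 after scaling). *Tcf7l2*, the main partner of β-catenin in hepatocytes, was 3.60, 3.89 and 3.57 FPKM in Ctrl and 2.86, 2.88 and 3.12 FPKM in LKO livers. It was lower in all LKO livers (log2 change -0.25, adjusted p = 0.0848) without being called.

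**Figure D4:**
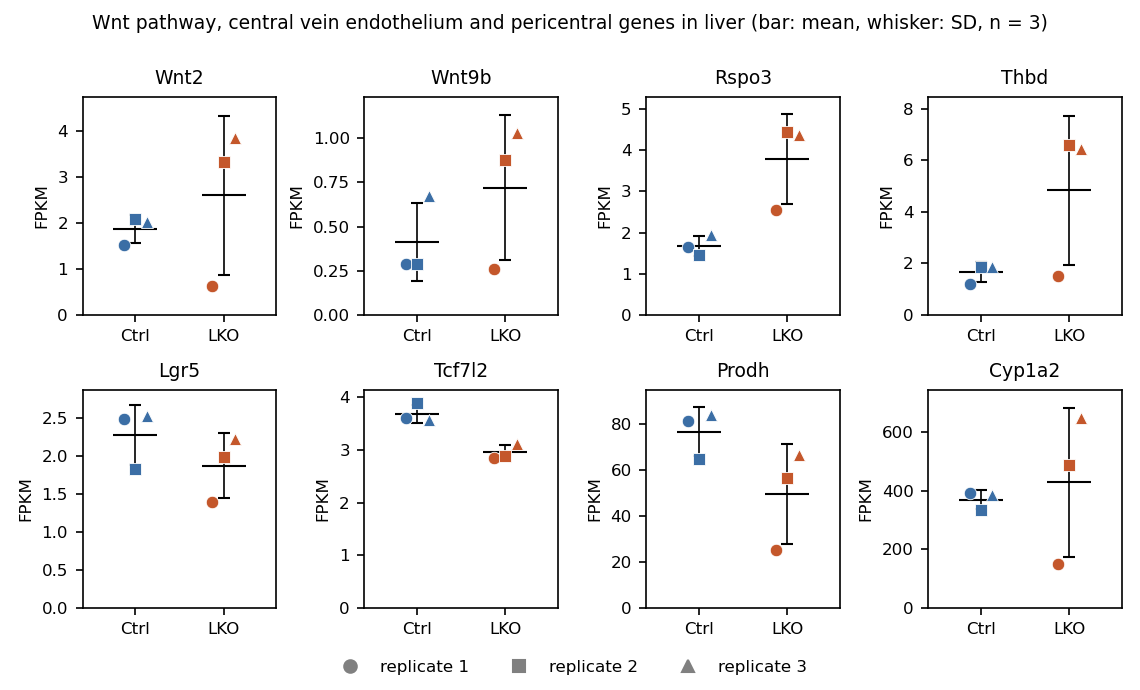
FPKM (y axis, from 0) of *Wnt2*, *Wnt9b*, *Rspo3*, *Thbd*, *Lgr5*, *Tcf7l2*, *Prodh* and *Cyp1a2* in the 3 Ctrl and 3 LKO livers (x axis), with a bar for the mean and whiskers for the SD (n = 3). LKO 1 had 0.622 FPKM of *Wnt2*, below the other 5 livers, while *Prodh* and *Cyp1a2* are shown because their profiles were nearest to that of *Glul*, and *Thbd* was picked after its values were seen.

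Of 15 tested β-catenin target genes of liver, a list that includes the 6 pericentral markers, 2 were called higher and 1 lower. Of all genes tested, 23.9% were called higher and 3.5% lower. Without LKO 1 the counts were 4 and 1 (32.5% and 4.97% of all genes). The median log2 change with all livers was 0.23, beside 0.33 for all genes. After scaling 2 were called higher and 3 lower (8.99% and 8.53% of all genes), and the median was -0.18. The higher pair were the proliferation genes *Myc* (from 1.34 to 20.8 FPKM, log2 change 2.86, adjusted p = 0.0131 by limma) and *Ccnd1* (from 6.19 to 44.8 FPKM, 2.69, adjusted p = 3.89e-04), which many other pathways also switch on. The lower gene was *Nr1i3*, the nuclear receptor CAR, which fell from 73.3 to 37.3 FPKM (log2 change -0.97, adjusted p = 0.00430). All 3 kept their call after scaling and without LKO 1. *Lect2*, a secreted protein of pericentral cells, had a log2 change of 0.38 (adjusted p = 0.0231) that is under 1.5-fold.

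Other zonated transcripts outside the cytochromes were called in both directions in each zone. Of 18 tested pericentral ones, 3 were called higher and 3 lower (median log2 change 0.01), beside 23.9% and 3.5% of all genes. After scaling 0 were called higher and 7 lower (8.99% and 8.53% of all genes). Without LKO 1 the counts were 5 and 3 (32.5% and 4.97% of all genes). The lower genes were the bile acid and drug transporter *Slco1b2* (290 to 143 FPKM, log2 change -1.03, adjusted p = 0.00273 by limma), *Pon1*, a lipoprotein esterase (494 to 284 FPKM, -0.82), and *Nr1i3*. The higher genes were *Ahr* (7.31 to 14.7 FPKM, 0.89), *Aldh3a2* (68.6 to 124 FPKM, 0.87) and *Cldn2* (28.2 to 48.8 FPKM, 0.74), none of which was called after scaling. Of 15 tested periportal transcripts, 4 were called higher and 2 lower (median log2 change 0.02), beside the same shares of all genes. The counts were 3 and 4 after scaling, 4 and 6 without LKO 1, and 6 and 1 with TPM (36.9% and 2.88% of all genes). With all 6 livers *Apoa4*, an apolipoprotein, rose most, from 62.2, 94.3 and 71.2 FPKM to 870, 283 and 251 FPKM (log2 change 2.39, adjusted p = 0.00792 by limma). Its highest value was that of LKO 1. *Aldh1b1*, a mitochondrial aldehyde dehydrogenase, rose from 26.0 to 128 FPKM (2.25, adjusted p = 1.46e-04) and *Hsd17b13*, a lipid droplet protein, from 216 to 460 FPKM (1.08, adjusted p = 0.00254). *Pigr*, the receptor that carries IgA into bile, fell from 325 to 174 FPKM (-0.94, adjusted p = 0.0158), and *G6pc*, the last enzyme of glucose release, from 245 to 153 FPKM (-0.68, adjusted p = 0.00489).

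Of 11 tested genes of histidine and serine breakdown, *Hal* included, 3 were called lower and 0 higher, with a median log2 change of -0.25, while 3.5% of all tested genes were called lower and 23.9% higher. After scaling 4 were called lower and 0 higher, and without LKO 1 these counts were 5 and 0 (8.53% and 4.97% of all genes were then called lower). With TPM 3 were called lower and 2 higher (2.88% and 36.9% of all genes). The higher pair, named after their values were seen, were *Hdc*, which makes histamine from histidine (log2 change 0.63 on log2(TPM + 1), adjusted p = 0.0110 by limma), and *Sdsl*, a relative of *Sds* (0.59, adjusted p = 0.0442). *Ftcd*, which passes the last fragment of histidine to folate, was 240, 206 and 217 FPKM in Ctrl and 159, 110 and 109 FPKM in LKO livers (log2 change -0.83, adjusted p = 0.00980 by limma). *Shmt1*, the cytosolic enzyme between serine and glycine, went from 74.4 to 43.6 FPKM (-0.78, adjusted p = 0.00876). Both kept their call after scaling and without LKO 1. *Uroc1*, the second enzyme of histidine breakdown, was 142, 145 and 144 FPKM in Ctrl and 151, 109 and 82.2 FPKM in LKO livers, the order of libraries of *Sds*. It was not called with all 6 livers (-0.38, adjusted p = 0.163) and was called lower without LKO 1 (-0.60, adjusted p = 0.00409). *Amdhd1*, the third enzyme, had a log2 change of 0.07 (adjusted p = 0.653).

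Of 14 tested genes that make, split or carry glutamine and ammonium, 4 were called higher and 0 lower, beside 23.9% and 3.5% of all genes. 1 of the calls, which is none of the carriers below, passed the filter on low values only through the LKO livers, and *Slc1a5* reached 1 FPKM in 1 Ctrl liver, so nothing is read from this count. Without LKO 1 the counts were 4 and 1 (32.5% and 4.97% of all genes), with *Rhbg* among the higher genes and *Gls2* the lower one. The calls included the amino acid carriers *Slc1a4*, *Slc1a5* and *Slc3a2*, with log2 changes of 1.23, 1.16 and 2.26 (adjusted p = 0.00511, 0.00325 and 0.00919 by limma). *Slc38a3*, the glutamine transporter of hepatocytes, was 577, 470 and 539 FPKM in Ctrl and 552, 360 and 359 FPKM in LKO livers (-0.34, adjusted p = 0.173). *Glud1*, glutamate dehydrogenase, and *Cps1*, the entry enzyme of the urea cycle, had log2 changes of 0.22 and 0.13 (adjusted p = 0.138 and 0.367). The glutamate transporters *Slc1a1* and *Slc1a3* were at most 0.155 FPKM in any liver, and *Rhcg* was listed at 0 in all 6 libraries.

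Around *Oat*, 1 of 10 tested genes of ornithine and proline metabolism was called higher and 0 lower (23.9% and 3.5% of all genes). The counts were 1 and 4 after scaling (8.99% and 8.53% of all genes). With TPM they were 2 and 0 (36.9% and 2.88%), from *Odc1* and *Aldh18a1*. Without LKO 1 they were 1 and 2 (32.5% and 4.97%). There *Aldh18a1* was not tested, *Odc1* was the higher gene and *Otc* was among the lower ones. The call with all 6 livers was *Aldh18a1*, which starts proline synthesis from glutamate and was 0.355, 0.273 and 0.340 FPKM in Ctrl and 2.25, 6.14 and 13 FPKM in LKO livers (log2 change 2.38, adjusted p = 0.00866 by limma). It passed the filter on low values only through the LKO livers, so a call of *Aldh18a1*, with TPM as well, is no result about the list. *Otc*, the urea cycle enzyme that uses ornithine, fell short of the fold limit (192, 197 and 197 against 171, 130 and 99.0 FPKM, -0.58, adjusted p = 0.0426). *Aldh4a1*, which finishes proline breakdown, had a log2 change of 0.24 (adjusted p = 0.210).

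Promoter windows, from 250 bases before to 50 after the start in the RefSeq table of GRCm38.p6, were found for 5 of the 9 markers (*Glul*, *Oat*, *Slc1a2*, *Axin2* and *Hal*). They were searched on both strands for CTTTGAA and CTTTGAT, the letters that TCF factors bind with β-catenin, whose reverse complements are TTCAAAG and ATCAAAG. Of all 32851 windows, 8.651% hold at least 1 match. Pericentral *Slc1a2* and periportal *Hal* each had 1, and *Glul*, *Oat* and *Axin2* had 0. The windows of *Slc1a2* (chr2:102706188-102706487, plus strand, downstream of the start of the deposited gene span) and *Hal* (chr10:93488518-93488817, plus strand) are shown as the pair from opposite zones with a match, which is in capitals.
Slc1a2: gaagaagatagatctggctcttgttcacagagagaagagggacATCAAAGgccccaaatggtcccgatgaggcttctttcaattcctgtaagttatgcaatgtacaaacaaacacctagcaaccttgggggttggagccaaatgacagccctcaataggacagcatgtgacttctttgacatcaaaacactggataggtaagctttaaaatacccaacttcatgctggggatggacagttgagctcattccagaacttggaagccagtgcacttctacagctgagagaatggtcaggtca
Hal: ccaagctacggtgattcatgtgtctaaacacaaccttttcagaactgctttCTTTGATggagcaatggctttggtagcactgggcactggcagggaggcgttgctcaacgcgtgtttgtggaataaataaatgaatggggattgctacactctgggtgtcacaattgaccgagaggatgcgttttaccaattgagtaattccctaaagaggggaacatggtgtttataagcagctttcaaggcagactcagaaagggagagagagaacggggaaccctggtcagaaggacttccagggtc
A match describes these letters only.

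The same markers were compared in the other 3 tissues, where the Alb promoter is not expected to act. Of the 9 markers, 5 were tested in iWAT, 4 in GM and 7 in hypothalamus, and 0 were called by limma, which called 0, 0 and 3 genes in all (0%, 0% and 0.0217% of those tested). An unadjusted p under 0.05 was found for 3, 2 and 0 of these markers and for 1842, 743 and 515 of all 12288, 10877 and 13828 genes tested. *Hal*, *Sds* and *Gls2* were highest in liver, with Ctrl means of 151, 153 and 163 FPKM there and at most 0.420, 1.83 and 15.4 FPKM elsewhere, the latter pair in hypothalamus. *Rhbg* was highest in liver (4.54 ± 0.799 FPKM, SD, n = 3) and present in iWAT (1.91 ± 0.508), and its mean was at most 0.0399 FPKM in the other tissues. *Slc1a2* was highest in hypothalamus (92.5 ± 14.0 FPKM), then in liver (16.2 ± 2.56).

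*Glul*, by contrast, was higher in Ctrl iWAT (562 ± 67.4 FPKM) and hypothalamus (431 ± 21.1) than in Ctrl liver (310 ± 15.6), and lowest in GM (89.1 ± 4.77), with no overlap between neighbours in this order. *Oat* was highest in liver (223 ± 20.0 FPKM), then iWAT (108 ± 6.47), GM (93.1 ± 2.35) and hypothalamus (56.4 ± 3.47), again without overlap. *Axin2* was highest in hypothalamus (9.98 ± 1.23 FPKM) and lowest in liver (1.69 ± 0.807), and its values overlapped between iWAT and GM and between GM and liver. For *Tbx3*, hypothalamus (3.22 ± 0.843), liver (2.94 ± 1.12) and iWAT (2.37 ± 0.403) overlapped, and GM was lowest (1.48 ± 0.124).

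Some markers had groups without overlap in iWAT or GM but were not called. In iWAT, *Tbx3* was 2.38, 1.96 and 2.77 FPKM in Ctrl and 3.50, 5.91 and 7.10 FPKM in LKO mice, without overlap (9.76% of tested iWAT genes were higher in this way). The log2 change was 0.91 (SE 0.22, adjusted p = 0.156 by limma), and without iWAT LKO 1 it was called (1.16, adjusted p = 0.0460). *Axin2* went the other way in iWAT, from 5.18, 2.88 and 4.01 FPKM to 2.18, 2.26 and 1.98 FPKM (log2 change -0.65, adjusted p = 0.165), where 11% of tested genes were lower in all LKO mice. *Rhbg* was lower in all 3 LKO samples of iWAT as well (-0.53, adjusted p = 0.178), and so was *Oat* (-0.25, adjusted p = 0.345). In GM, *Glul* was 93.3, 83.9 and 90.0 FPKM in Ctrl and 95.1, 148 and 130 FPKM in LKO mice (0.45, adjusted p = 0.626), without overlap, and 4.38% of tested GM genes were higher in this way. *Oat* (-0.08, adjusted p = 0.845) and *Axin2* (-0.39, adjusted p = 0.661) were lower in every LKO sample of GM, like 7.2% of the genes tested there. Values in hypothalamus overlapped for all 7 markers tested there.

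**Figure D5:**
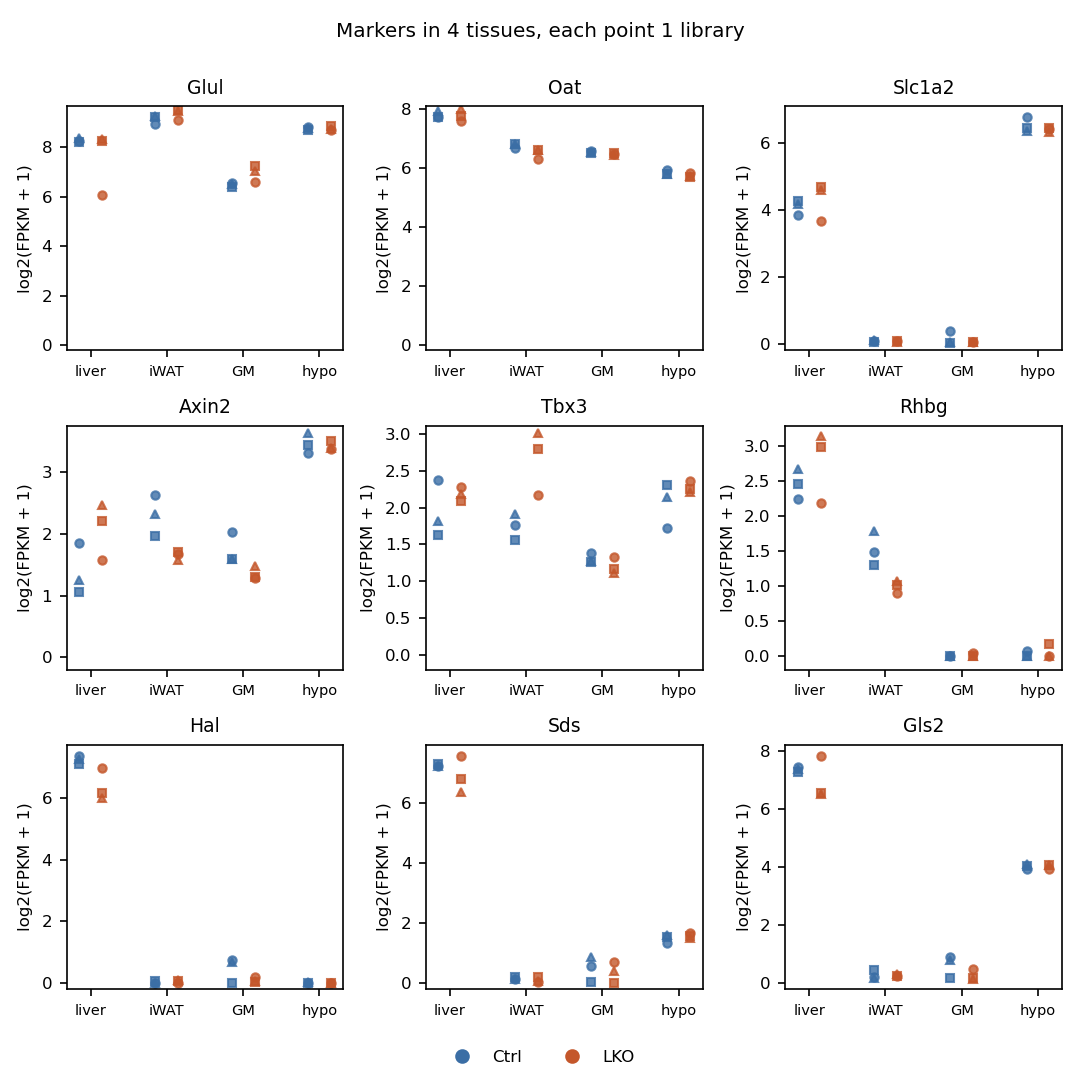
Level of each marker as log2(FPKM + 1) (y axis, from about 0) in liver, iWAT, GM and hypothalamus (x axis), with 1 point for each library and colours for Ctrl and LKO. *Hal* is near 0 outside liver, *Slc1a2* is highest in hypothalamus, and *Axin2* in LKO mice lies below the Ctrl mice in iWAT and GM.

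The difference between genotypes was compared between tissues in a limma fit of all 24 libraries, in which 33.5% of 15849 genes had an adjusted p under 0.05 for the interaction. Of the 9 markers, *Axin2* (adjusted p = 0.00866), *Hal* (0.0326), *Tbx3* (0.0358) and *Rhbg* (0.0495) passed and the other 5 did not (0.251 to 0.741). *Hal* was at most 0.661 FPKM in any library outside liver, and *Rhbg* at most 0.12 FPKM in GM and hypothalamus. Contrasts with those tissues hold little beyond the liver change. With median-ratio scaling *Glul* (0.0432) and *Oat* (0.0305) passed as well and *Rhbg* did not (0.138). When each of the 18 libraries of the other tissues was left out in turn, *Axin2* passed every time, *Hal* failed 3 times, *Tbx3* 8 times and *Rhbg* 17 times. The *Axin2* change in liver exceeded that in iWAT by 1.35, in GM by 1.08 and in hypothalamus by 0.73 on the log2 scale. For *Tbx3* the change in liver was 0.67 below that in iWAT (difference -0.67) and 0.35 and 0.03 above those in GM and hypothalamus.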

How the data were processed

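Total RNA was extracted with Trizol, made into libraries with TruSeq RNA Library Prep Kit v2, which does not mark strand, and sequenced as paired ends on a HiSeq4000. The submitters' processing notes name FastQC 0.11.5, Trimmomatic 0.32, HISAT2 2.0.5, Bowtie2 2.2.6, STAR 2.5.2b, StringTie 1.3.3b and mm10, with no role given for each. The authors deposited FPKM for 24532 genes, with no scaling between libraries. Tables of single libraries, also deposited by the authors, hold coverage (a signal that is not adjusted for depth), FPKM and TPM. Coverage was used only for the depth, and TPM only as an alternative. No read counts entered the work, and counting error could therefore not be given.

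A gene was tested in a tissue if 3 or more of its 6 libraries had 1 FPKM or more. limma 3.58.1 in R 4.3.3 (lmFit, eBayes with trend) compared LKO with Ctrl on log2(FPKM + 1), with Benjamini-Hochberg adjustment over all tested genes. Interactions of genotype and tissue were tested by the F statistic of 3 contrasts in a fit of all 24 libraries. These were taken as independent, since the labels do not say which libraries share a mouse, and the p-values measure the spread between these samples. The code was tested on simulated data, and tables and plots used Python 3.11.15, pandas 2.3.3 and matplotlib 3.10.9. The alternatives were ordinary variances, quantile normalization, median-ratio scaling, TPM, a pseudocount of 0.1, no filter, a filter at a mean of 5 FPKM, a fit of all 24 libraries, a replicate block, and leaving out each library. Named genes were the 9 markers, the targeted gene, fixed partners in the same steps, the nearest profiles of *Glul* and *Sds*, and from each other list up to 5 called genes with the largest change and up to 3 with the highest Ctrl level. *Cldn2*, *Odc1*, *Thbd*, *Hdc* and *Sdsl* were named after their values were seen. The members and lists were chosen with earlier results of these data known. Some named genes are not reported here.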

Additional observations from a re-analysis of the deposited data

Results flagged for a closer look

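The difference between LKO and Ctrl differed between liver, iWAT, GM and hypothalamus for 4 of the 9 markers, by the limma interaction test adjusted over 15849 genes. Of all these genes 33.5% passed, so nothing about the markers is read from this count. For *Axin2* the adjusted p was 0.00866, with a log2 fold change of 0.70 in liver against -0.65 for iWAT, -0.39 for GM and -0.04 for hypothalamus. It was under 0.05 without each of the 24 libraries in turn, and 0.0966 with quantile normalization. For *Hal* it was 0.0326. *Hal* was at most 0.661 FPKM in any library outside liver, so that the comparison is of a liver change with tissues that hardly express the gene. It was 0.296 with a pseudocount of 0.1, 0.129 with TPM and 0.11 with quantile normalization, and 0.0817 without Ctrl 1, 0.0702 without Ctrl 3, 0.0978 without LKO 2 and 0.108 without LKO 3, and it was 0.0514 without iWAT LKO 3, 0.0501 without iWAT LKO 2 and 0.0502 without iWAT Ctrl 3. For *Tbx3* it was 0.0358, with log2 fold changes of 0.25 in liver and 0.91 in iWAT, and it was 0.0537 without liver LKO 2 and 0.0572 without liver LKO 3. Leaving out 1 library of another tissue ended it in 8 of 18 cases (iWAT Ctrl 1, Ctrl 2, LKO 2 and LKO 3, and GM Ctrl 1, Ctrl 3, LKO 2 and LKO 3), with an adjusted p of at most 0.109. For *Rhbg* it was 0.0495, with changes of 0.31 in liver and -0.53 in iWAT. *Rhbg* was at most 0.0308 FPKM in any GM library and 0.12 in any hypothalamus library, so that these tissues hardly express it. Its adjusted p was 0.0973 without liver Ctrl 1, 0.0832 without Ctrl 2, 0.102 without LKO 2 and 0.0915 without LKO 3. The value was 0.138 with median-ratio scaling, 0.101 with quantile normalization and 0.0971 with a pseudocount of 0.1. It was over 0.05 in 17 of the 18 cases in which 1 library of another tissue was left out, with iWAT Ctrl 2 the exception (0.0332), and at most 0.142.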

How the results depend on the processing

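The count of called liver genes was 3006, and it became 1499 with ordinary variances, 1645 with quantile normalization, 1920 with median-ratio scaling, 1776 among genes with a mean of 5 FPKM or more and 4822 with TPM. It ranged from 1343 to 3907 when 1 library was left out. The causes of these changes were not tested. The count of pericentral markers called higher became 1 with TPM and 1 in the fit of all 24 libraries (*Axin2* in both), and 0 to 2 with 1 library left out. The count of periportal markers called lower became 0 with ordinary variances and 3 with scaling without LKO 1, an alternative chosen after seeing the data, and 0 to 3 with 1 library left out. The difference between the zonal means stayed positive, at 0.26 to 1.28 with 1 library left out. The interaction count of 4 became 2 with a pseudocount of 0.1 and 1 with quantile normalization, and 1 to 6 with 1 liver library and 1 to 3 with 1 library of another tissue left out, the latter chosen after seeing the data. In iWAT, 0 to 1 markers were called with 1 library left out. The counts of other lists without LKO 1, given above, were also chosen after seeing the data.

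Signs turned for *Oat* with TPM (0.096) and without Ctrl 3 (0.045) or LKO 1 (0.069, in a range from -0.13), for *Glul* without LKO 1 (0.0073, in a range from -1.11), for *Slc1a2* with median-ratio scaling (-0.18) and quantile normalization (-0.11), for *Rhbg* likewise (-0.065 and -0.084) and for *Tbx3* likewise (-0.086 and -0.17) and with scaling without LKO 1 (-0.21). *Axin2*, *Hal*, *Sds* and *Gls2* kept their sign in every setting run. Without LKO 3, however, the change was -0.066 for *Sds* and -0.18 for *Gls2* (adjusted p = 0.825 and 0.706 by limma). Same-numbered livers had correlations of 0.154, 0.0276 and 0.0359 between their deviations from the group means. With 3 livers in each group, these values cannot show whether a number marks anything shared. LKO 1 and LKO 3 correlated best with the Ctrl liver of their own number, and LKO 2 with Ctrl 3 (0.269). With a replicate block, 3031 genes were called, *Hal* was the only marker of the 9 called, and the interaction count stayed at 4. Depth limits genes near 1 FPKM, such as *Wnt9b*, which was not tested.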
